A study of Rattus norvegicus with 6 samples.

Results

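The oligodendrocyte lineage genes described here are Olig1, Olig2, Sox10, Pdgfra, Cspg4, Mbp, Mog, Mag and Cnp. They were taken by symbol from a table of 37183 gene symbols, and all 9 were found in it. The table holds 6 RNA sequencing libraries of primary rat hippocampal cultures, each the only one of its group, so there are no replicates. The neuron-labelled groups were a control at 0 h and cultures given 200 nM insulin for 6 h and for 12 h, and the astrocyte-labelled groups were the same. The control is named saline in the titles and untreated at 0 min in the characteristics. All cultures had new medium 4 h before treatment: insulin-free B27 at 1% in serum-free Neurobasal for neurons, and DMEM/F12 with 2% FBS and 5 mM glucose for astrocytes. The control was collected at 0 h, so insulin and time in that medium cannot be told apart. Astrocytes had been grown before that in 10% FBS and 25 mM glucose. No genotype or animal age is used here.

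Oligodendrocytes are the myelin-forming glia of the central nervous system. They arise from dividing precursor cells, which depend on the growth factor PDGF and carry its receptor PDGFRA and the proteoglycan NG2, the product of Cspg4. The transcription factors OLIG1, OLIG2 and SOX10 set the lineage and remain on as it matures. Differentiated cells switch on Cnp and then the structural myelin genes Mbp, Mag and Mog. Insulin and the related factor IGF1 are common additives of media in which such cells are grown. Several of these genes also serve other cells: Olig1 and Olig2 are used by ventral forebrain progenitors, Cspg4 by pericytes and smooth muscle cells, Pdgfra by fibroblasts, and Sox10, Mbp, Mag and Cnp by Schwann cells.

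Levels are FPKM, fragments scaled by transcript length and library total, recovered from the deposited log2 values. The authors had quantile-normalised those values across the 6 libraries, so a level is not a plain scaled count. Differences are on the log2 scale. A blank cell is no value. With 1 library per group nothing was tested, and a gene is called higher or lower only where it differed by at least 2-fold and reached 1 FPKM in either library. The depth of the libraries is unknown, so no counting error can be given and levels far below 1 FPKM are uncertain.

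The neuron-labelled control carried every member, with Olig1, Cnp and Olig2 far above the rest. The order of the levels there was Olig1, Cnp, Olig2, Pdgfra, Mog, Mbp, Sox10, Mag and Cspg4, and without replicates no neighbours in it can be told apart by their spread. Olig1 and Olig2 are basic helix-loop-helix factors that neighbour each other in the genome. Olig1 measured 80.6 FPKM in the neuron-labelled control, 78.5 FPKM at 6 h and 85.4 FPKM at 12 h, above 99.3% of the symbols with a value in the control. Olig2 was at 25.9, 21.8 and 21.5 FPKM. The other precursor genes were much lower. Pdgfra, the PDGF receptor, was at 2.46, 2.42 and 2.26 FPKM. Sox10, which acts with OLIG2 and drives myelin genes, was at 0.978, 0.897 and 0.911 FPKM. Cspg4 was at 0.397, 0.355 and 0.346 FPKM. Olig1 and Olig2 together made up 96.5% of the summed FPKM of the 5 precursor genes in that control. The 3 neuron-labelled libraries kept 1 order of these 5 genes.

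Among the myelin genes of the neuron-labelled cultures a single gene stood above the others. Cnp, which encodes an enzyme of uncompacted myelin made early in differentiation, was at 36.4, 32.1 and 29.1 FPKM. Mog, a glycoprotein of the outer myelin surface, was at 1.69, 1.59 and 1.40 FPKM. Mbp, the protein that compacts the myelin membrane, was at 1.05, 0.980 and 1.07 FPKM, so Cnp was 34.8 times Mbp in the control. Mag, an adhesion protein that faces the axon, was at 0.664, 0.599 and 0.728 FPKM. Cnp made up 91.4% of the summed FPKM of the 4 myelin genes in the control. Mog, Mbp and Mag stayed in the same order in all 3 libraries.

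The astrocyte-labelled libraries showed another set. Cnp led there, with 3.52 FPKM in the control, 3.46 FPKM at 6 h and 2.84 FPKM at 12 h. Mog was at 2.21, 2.01 and 2.04 FPKM and Cspg4 at 1.32, 1.29 and 1.16 FPKM. These 3 were the members that reached 1 FPKM in any astrocyte-labelled library. Pdgfra was at 0.302, 0.246 and 0.217 FPKM. Olig1 was at 0.0138, 0.105 and 0.0252 FPKM, and Olig2 was blank in the control and at 0.0359 and 0.0163 FPKM after insulin. Sox10 was between 0.00308 and 0.00811 FPKM and Mbp between 0.00438 and 0.00535 FPKM. Mag was blank in all 3 libraries. The value of Mog therefore stood beside almost no Mbp and no Mag.

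**Figure D1:**
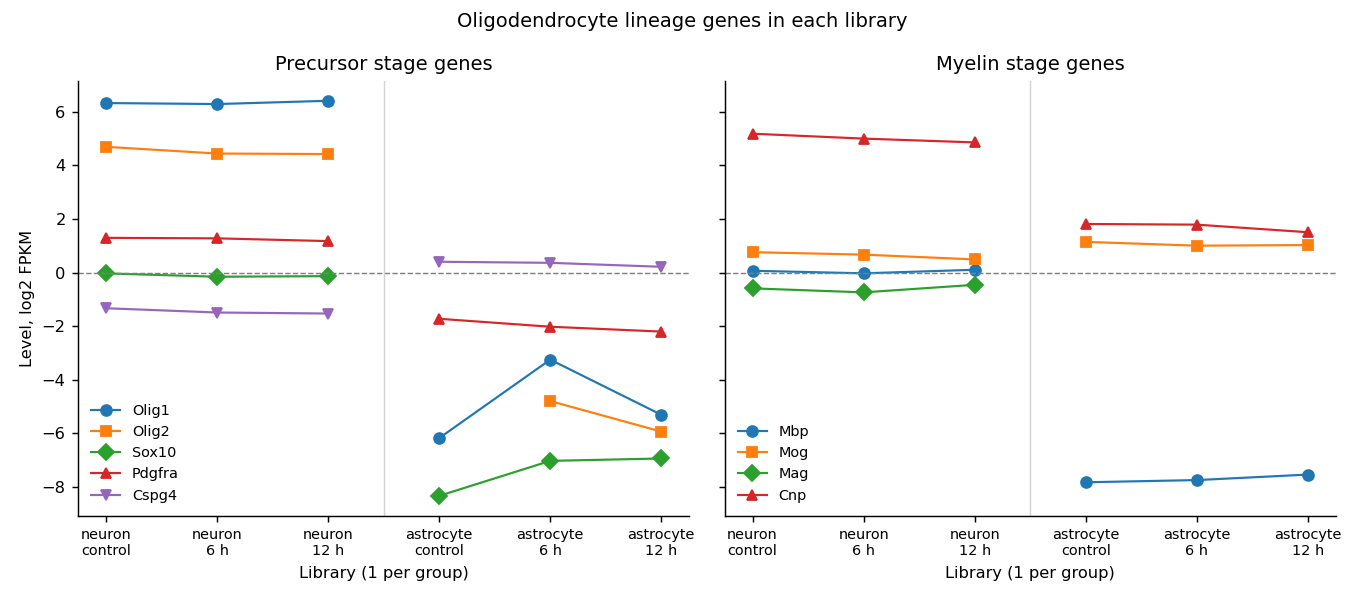
Level of each member in each of the 6 libraries as log2 FPKM, with precursor stage genes on the left and myelin stage genes on the right; the dashed line marks 1 FPKM, lines join libraries of a culture, and a missing point is a blank cell. Olig1, Cnp and Olig2 lead the neuron-labelled libraries (80.6, 36.4 and 25.9 FPKM in the control), while Cnp, Mog and Cspg4 are the members above the dashed line in the astrocyte-labelled ones.

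Mog needs a caution of its own. In the RefSeq table of assembly GRCr8, the Mog gene overlaps Zfp57, a zinc finger gene of imprinting control. Zfp57 was higher than Mog in every library, with 2.33, 2.50 and 1.91 FPKM along the neuron-labelled time series and 3.46, 3.15 and 4.04 FPKM along the astrocyte-labelled one. The library kit kept strand, but whether the authors' counting used it is not given in the sources used here. The part of Zfp57 reads in the Mog value was not tested, and the values of Mog are uncertain for that reason. Cspg4 overlaps Cimap1c, listed under its older symbol Odf3l1 at no more than 0.0549 FPKM in any library. Mbp and Mag overlap only loci that the deposited table does not list by symbol, and the other 5 members overlap no gene in the RefSeq table.

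The control libraries were compared to see where the lineage is expressed. Of the 6 members with a value in both controls and 1 FPKM in either, 4 were at least 2-fold higher in the neuron-labelled control and 1 was lower. Over all 7146 symbols compared in this way, 21.9% were higher and 18.7% lower. Olig1 was higher by 12.52 on the log2 scale, at 80.6 FPKM in the neuron-labelled control against 0.0138 FPKM in the astrocyte-labelled control. Mbp was higher by 7.90, at 1.05 against 0.00438 FPKM. Because the astrocyte-labelled levels of both are near 0, the sizes of these differences are uncertain. Cnp was higher by 3.37, at 36.4 FPKM in the neuron-labelled control against 3.52 FPKM in the astrocyte-labelled control. Pdgfra was higher by 3.02, at 2.46 against 0.302 FPKM. Cnp and Pdgfra thus differed by a similar amount, although they mark different stages.

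Cspg4 went the other way. It was at 0.397 FPKM in the neuron-labelled control against 1.32 FPKM in the astrocyte-labelled control, a difference of -1.74. On the log2(FPKM + 1) scale it was -0.73, short of 2-fold. Mog differed by -0.38 and was not called. Sox10 differed by 8.31 but stayed below 1 FPKM in both controls. It was just below in the neuron-labelled control, at 0.978 FPKM, and far below in the astrocyte-labelled control, at 0.00308 FPKM. Olig2 and Mag were blank in the astrocyte-labelled control, so they have no difference; their levels in the neuron-labelled control were 25.9 and 0.664 FPKM. Of the 7 members with a value in both controls, Olig1 differed most and Mog least. In bulk samples, fewer cells of a type and less RNA per cell cannot be told apart.

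**Figure D2:**
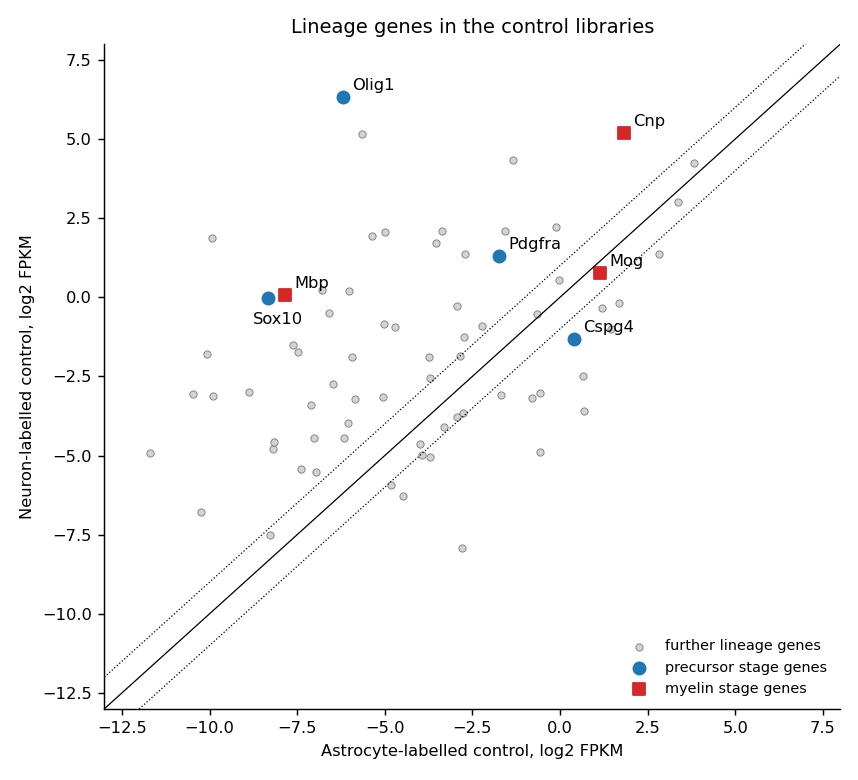
Each point is a gene, with the neuron-labelled control on the y axis and the astrocyte-labelled control on the x axis, both as log2 FPKM; the solid line marks equal levels and the dotted lines a 2-fold difference. Olig1, Sox10, Mbp, Pdgfra and Cnp lie above the dotted lines, Mog between them and Cspg4 below; Olig2 and Mag, blank in the astrocyte-labelled control, are not drawn.

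The bases before the transcription start are shown for Olig2, which had a value in the neuron-labelled control and was blank in the astrocyte-labelled one, for Cnp, which was higher in the neuron-labelled control, and for Cspg4, which was lower there. The sequences are from RefSeq on assembly GRCr8, while the deposited values name another build, and each is the 250 bases before the start on the plus strand. They cover chr11:43961335-43961584 for Olig2, chr10:86011254-86011503 for Cnp and chr8:66160692-66160941 for Cspg4. Capitals mark matches to 3 motifs searched on both strands. The first is CAGCTG, an E-box that OLIG2 can bind and that reads the same on both strands. Another is ACAAAG or its reverse complement CTTTGT, a core that SOX factors can bind. The last is GGGCGG or its reverse complement CCGCCC, the GC box.
Olig2: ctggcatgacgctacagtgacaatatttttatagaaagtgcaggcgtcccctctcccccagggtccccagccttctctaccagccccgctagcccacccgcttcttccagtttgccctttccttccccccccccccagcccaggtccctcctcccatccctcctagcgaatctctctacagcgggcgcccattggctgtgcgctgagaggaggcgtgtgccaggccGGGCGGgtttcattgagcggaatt
Cnp: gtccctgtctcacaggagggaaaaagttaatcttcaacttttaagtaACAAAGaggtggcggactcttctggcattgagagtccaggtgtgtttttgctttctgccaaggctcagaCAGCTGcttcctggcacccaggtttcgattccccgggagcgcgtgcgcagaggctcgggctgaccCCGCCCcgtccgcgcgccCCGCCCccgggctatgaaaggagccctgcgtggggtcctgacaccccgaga
Cspg4: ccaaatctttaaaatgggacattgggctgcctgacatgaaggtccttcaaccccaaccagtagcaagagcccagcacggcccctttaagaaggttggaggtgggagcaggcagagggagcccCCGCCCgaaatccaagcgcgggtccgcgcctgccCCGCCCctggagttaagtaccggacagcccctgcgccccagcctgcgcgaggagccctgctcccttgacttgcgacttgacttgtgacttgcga
Olig2 held 1 GC box and neither of the other motifs. Cnp held 1 E-box, 1 SOX core and 2 GC boxes. Cspg4 held 2 GC boxes. No marked match overlaps another in these 3 sequences. Over 33469 such windows of RefSeq, 12% held the E-box, 16.3% the SOX core and 30.5% a GC box. A match describes the letters only.

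Other genes of the lineage were read from 6 further lists with 74 symbols in the table. Many of them are also used by astrocytes or neurons. Of 21 that reached 1 FPKM in either control with a value in both, 12 were higher and 6 lower in the neuron-labelled control. Over all 7146 symbols compared in this way, the shares were 21.9% and 18.7%. The transcription factors Sox8 and Nkx2-2, which act in precursors, were at 20.2 and 3.79 FPKM in the neuron-labelled control against 0.396 and 0.0243 FPKM in the astrocyte-labelled control. Bcan and Ptprz1, matrix and surface genes of precursors and astrocytes, were at 35.6 and 3.63 FPKM against 0.0200 and 0.00103 FPKM. Cldn11, a tight junction gene of myelin, was at 1.16 against 0.0154 FPKM. Bcas1, which marks newly forming oligodendrocytes, was at 2.55 against 0.154 FPKM. The 6 that were lower in the neuron-labelled control were Rras2, Bmp4, Cd9, Tmem98, Cers2 and Pdgfa. Pdgfa, the ligand of the PDGF receptor, was at 0.786 FPKM in the neuron-labelled control against 2.31 FPKM in the astrocyte-labelled control, the reverse of Pdgfra. Id2 and Id4, which hold back differentiation, were not called, at 19.1 and 8.06 FPKM against 14.1 and 10.3 FPKM.

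Genes of later stages were low even in the neuron-labelled control. Those named in this paragraph were chosen after their values were seen. Gpr17, a receptor of cells committed to differentiate, was at 0.0230 FPKM and Enpp6, an enzyme of newly formed oligodendrocytes, at 0.0329 FPKM. Myrf, the factor that switches on myelin genes, was at 0.531 FPKM. The myelin genes Mobp and Opalin were at 0.127 and 0.00767 FPKM. The insulin receptor gene Insr was at 0.277 FPKM in the neuron-labelled control and 0.137 FPKM in the astrocyte-labelled control, and Igf1r, the IGF1 receptor gene, at 0.111 and 0.569 FPKM.

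Markers of other cells stood beside these levels. In the neuron-labelled libraries 9 of 11 astrocyte markers reached 1 FPKM in each, with summed levels from 349 to 388 FPKM, against 6 or 7 of 11 and 55.3 to 62.6 FPKM in the astrocyte-labelled libraries. Interneuron and ventral progenitor markers summed to between 19.5 and 23.3 FPKM, with 5 or 6 of 7 at 1 FPKM, against 0.827 to 1.09 FPKM and 0 of 7 in the astrocyte-labelled libraries. Neuron markers summed to between 65.3 and 76.0 FPKM, with 8 or 9 of 12 at 1 FPKM, against 3.97 to 5.21 FPKM and 2 of 12. Pericyte and smooth muscle markers summed to between 4.52 and 10.6 FPKM, with 1 of 8 at 1 FPKM, against 425 to 504 FPKM and 4 of 8 in the astrocyte-labelled libraries. Fibroblast markers summed to no more than 0.253 FPKM, with 0 of 6 at 1 FPKM, against 90.7 to 109.9 FPKM and 3 of 6. Schwann cell markers summed to between 1.57 and 2.20 FPKM, with 1 of 8 at 1 FPKM, against 1.57 to 1.81 FPKM and 0 of 8. That 1 was Sox2, which neural progenitors also use. Fibroblast markers Dcn and Lum were blank in the neuron-labelled control. In the astrocyte-labelled control Tagln and Acta2, at 353 and 54.4 FPKM, made up most of the pericyte and smooth muscle sum. Cnn1 and Pdgfrb followed at 14.2 and 2.88 FPKM, Rgs5, Myh11 and Anpep were at no more than 0.00821 FPKM and Kcnj8 was blank. That sum does not describe the list as a whole. Of the 11 astrocyte markers, 10 had a larger value in the neuron-labelled than the astrocyte-labelled control. Fgfr3 was lower there, at 3.70 against 22.1 FPKM. The part of any of these cells in the levels of the 9 members was not tested.

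The next question was whether insulin moved the lineage genes in the neuron-labelled culture. No member reached 2-fold at 6 h or at 12 h, of 6 that reached 1 FPKM. Over all symbols, 2.89% of 6610 reached it at 6 h and 3.84% of 6641 at 12 h, so a count of 0 of 6 is near the background. At 6 h all 9 members, with or without the floor of 1 FPKM, were slightly below the control. Their differences ran from -0.25 for Olig2 to -0.02 for Pdgfra, with a median of -0.12 over the 9. Over all symbols compared the median was 0.14, and 31.9% lay below 0. Without the floor, 26.3% of 22714 symbols lay below 0. All 9 members share the same pair of libraries, so they are not separate observations. The middle 90% of all symbols ran from -0.40 to 0.69 at 6 h, and every member lay inside it.

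At 12 h the members of the neuron-labelled culture split. Olig2, Sox10, Pdgfra, Cspg4, Mog and Cnp were below the control, and Olig1, Mbp and Mag above it, while 33.9% of all symbols compared lay below 0, or 28.8% without the floor. The lowest was Cnp at -0.32, with 29.1 FPKM at 12 h against 36.4 FPKM in the control. Mog differed by -0.27 and Olig2 by -0.27. Relative to the median of all symbols, 0.14 at 12 h, all 9 members were lower, from -0.47 for Cnp to -0.01 for Mag. The libraries, which share 1 set of quantiles, had 25528 symbols with a value at 12 h against 23927 in the control; the part of that gap in the all-gene median was not tested. The middle 90% of all symbols ran from -0.53 to 0.78 and held all 9 members. The 6 h and 12 h comparisons share the control library. Between the 12 h and 6 h libraries the members differed by -0.18 for Mog to 0.28 for Mag, none reached 2-fold, and 1.07% of 6662 symbols did.

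**Figure D3:**
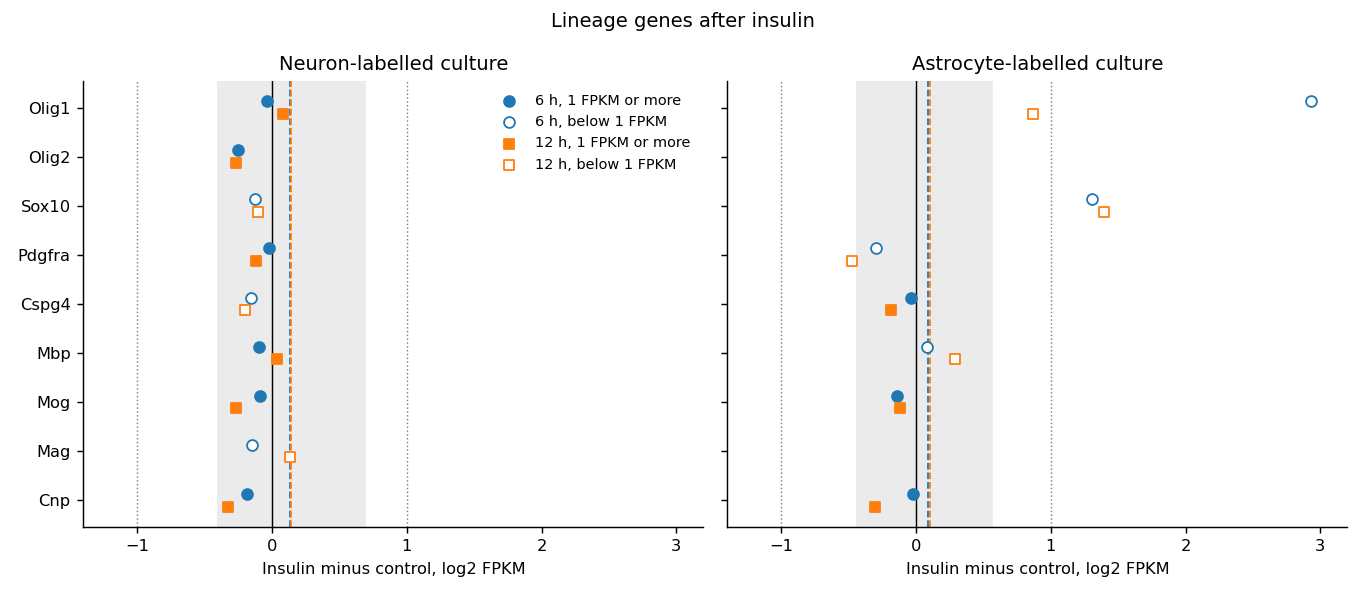
Log2 difference of each member, insulin minus control of the same culture, with circles for 6 h and squares for 12 h; open symbols are members below 1 FPKM in both libraries, dashed lines the all-gene medians, the grey band the middle 90% of all genes at 6 h and dotted lines a 2-fold difference. In the neuron-labelled culture all points lie between -0.32 and 0.13, and in the astrocyte-labelled culture the points beyond 2-fold, Olig1 at 6 h and Sox10 at both times, are open; Olig2 and Mag have no value in the astrocyte-labelled control.

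Marker lists were read in that culture too. Of the interneuron and ventral progenitor markers, 6 of 7 lay below the control at each time, beside 26.3% and 28.8% of all symbols with no floor. Their medians were -0.08 at 6 h and -0.23 at 12 h among the 6 at 1 FPKM or more, and none of these reached 2-fold. The all-gene median was 0.14 at each time. Neuron markers at 1 FPKM or more had medians of 0.05 and -0.45, and astrocyte markers 0.05 and -0.18. The summed pericyte and smooth muscle markers were 6.73 FPKM at 6 h and 10.6 FPKM at 12 h, against 4.52 FPKM in the control. Nearly all of each sum was Tagln, at 6.53 FPKM at 6 h, 10.3 FPKM at 12 h and 4.35 FPKM in the control. The sums therefore do not describe the list as a whole. The part of any of these markers in the lineage values was not tested.

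In the neuron-labelled culture none of 16 at 6 h or 17 at 12 h of the further lineage genes that reached 1 FPKM was 2-fold higher or lower. Of these, 9 lay below 0 at each time, beside the 31.9% and 33.9% of all symbols given above. With no floor, 50 of 72 lay above 0 at 6 h and 54 of 72 at 12 h, against 73.7% and 71.2% of all symbols. Nkx2-2 and Sox8 differed by -0.33 and -0.35 at 6 h and by -0.20 and -0.17 at 12 h. Id2 and Id4 differed by 0.28 and 0.31 at 6 h and by 0.21 and 0.36 at 12 h. Gpm6b, a membrane glycoprotein gene of glia and neurons, differed by 0.34 and 0.22. Its level was thus slightly above the control at both times, while Cnp was slightly below it at both.

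In the astrocyte-labelled culture no member at 1 FPKM or more reached 2-fold either. Cspg4, Mog and Cnp, the 3 that reached 1 FPKM, all lay below the control at both times. Cspg4 differed by -0.04 at 6 h and -0.19 at 12 h, Mog by -0.14 and -0.12, and Cnp by -0.02 and -0.31. Of all symbols compared, 1.93% of 6206 at 6 h and 1.53% of 6221 at 12 h reached 2-fold, and 36% and 33% lay below 0. The all-gene medians were 0.09 and 0.10, and the middle 90% of all symbols, from -0.44 to 0.57 at 6 h and from -0.41 to 0.52 at 12 h, held all 3. Cnp at 12 h was therefore lower than the control by a like amount in both cultures, -0.32 in the neuron-labelled and -0.31 in the astrocyte-labelled one. The cultures share no library. Between the 12 h and 6 h libraries of the astrocyte-labelled culture none of the 3 reached 2-fold, and 0.767% of 6260 symbols did.

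Members below 1 FPKM moved more in the astrocyte-labelled culture, at levels where values are uncertain. Olig1 was at 0.105 FPKM at 6 h against 0.0138 FPKM in the control, a difference of 2.93, and at 0.0252 FPKM at 12 h, a difference of 0.87. Sox10 differed by 1.31 and 1.40, reaching 0.00762 and 0.00811 FPKM against 0.00308 FPKM in the control. Olig1 and Olig2 were 2-fold lower at 12 h than at 6 h, as were 4.89% of 22085 symbols with no floor. Pdgfra differed by -0.30 and -0.48 and Mbp by 0.08 and 0.29. With no floor, 9.12% of 21513 symbols were at least 2-fold higher at 6 h and 9% of 21542 at 12 h. Among symbols with a value in all libraries and below 0.1 FPKM in the astrocyte-labelled 12 h library, 28% of 50 that were at 5 FPKM or more in the neuron-labelled control, Olig1 among them, were at least 2-fold higher at 6 h. Of the 6229 others below 0.1 FPKM, 19.9% were. The 50 were picked by their levels in these same data and include Olig1, so these shares are no test of its difference. Of the precursor surface and matrix genes 10 of 11, and of the interneuron and ventral progenitor markers 5 of 5 with a value, were above the control at 6 h, none of them at 1 FPKM, beside 66.5% of all symbols with no floor. Other lists lay above the control too: microglia markers 6 of 6, ependymal 3 of 3, astrocyte 9 of 11 and the further lineage genes together 47 of 62. Fewer did among neuron (6 of 10), pericyte and smooth muscle (4 of 7), fibroblast (3 of 6) and Schwann cell markers (3 of 8). The part of any of these lists in the values of Olig1 and Sox10 was not tested.

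The precursor and myelin stages were then set against each other in each library. In the neuron-labelled culture the 5 precursor genes summed to 110.3 FPKM in the control, 104 FPKM at 6 h and 110.4 FPKM at 12 h, and the 4 myelin genes to 39.8, 35.3 and 32.3 FPKM. The ratio of the precursor to the myelin sum was 2.77, 2.95 and 3.42. In the astrocyte-labelled culture the precursor genes summed to 1.64, 1.68 and 1.43 FPKM and the myelin genes to 5.73, 5.47 and 4.88 FPKM, and the ratio was 0.286, 0.307 and 0.292. By sums, precursor genes thus exceeded myelin genes in the neuron-labelled libraries and fell short of them in the astrocyte-labelled ones. Different genes made up the sums, since Cspg4 held 0.360% of the precursor sum in the neuron-labelled control against 80.6% in the astrocyte-labelled one.

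Precursor genes stayed ahead in the neuron-labelled libraries under most other measures, but not under the geometric means of 7 members, which had been planned. Most of the remaining measures were chosen after seeing the data. All of them kept Olig1, Olig2 or both, which together held 96.5% of the precursor sum in the control. No measure without both was run. Sox10, Pdgfra and Cspg4 were at 0.978, 2.46 and 0.397 FPKM in the control, each far below the myelin sum of 39.8 FPKM. By sums the lead thus rests on Olig1 and Olig2. Without Olig1 and Cnp, the most abundant member of each stage there, the ratio of sums was 8.74, 8.04 and 7.80. As a ratio of geometric means over all 9 members it was 1.79, 1.80 and 1.77. Over the 7 members with a value in all libraries, which leaves out Olig2 and Mag, the ratio of sums was 2.16, 2.37 and 2.82. The ratio of geometric means over those 7 was 0.738, 0.758 and 0.792, with myelin genes ahead. The order of the stages thus turned where geometric means and the loss of Olig2 and Mag came together, and with neither alone. In the astrocyte-labelled libraries the ratio stayed below 1 under each measure that was run there. After insulin, the medians of the stages in the neuron-labelled culture differed little: at 6 h the precursor genes had -0.12 and the myelin genes -0.12, and at 12 h they had -0.12 and -0.12. The higher ratio of sums at 12 h came with a lower myelin sum. Most of that fall was Cnp, at 29.1 FPKM at 12 h against 36.4 FPKM in the control. The myelin sum without Cnp was also slightly lower, at 3.17 FPKM at 6 h and 3.21 FPKM at 12 h, against 3.41 FPKM. Without both Olig1 and Cnp the ratio moved the other way, to 7.80 at 12 h against 8.74 in the control. A ratio without Cnp alone was not run.

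**Figure D4:**
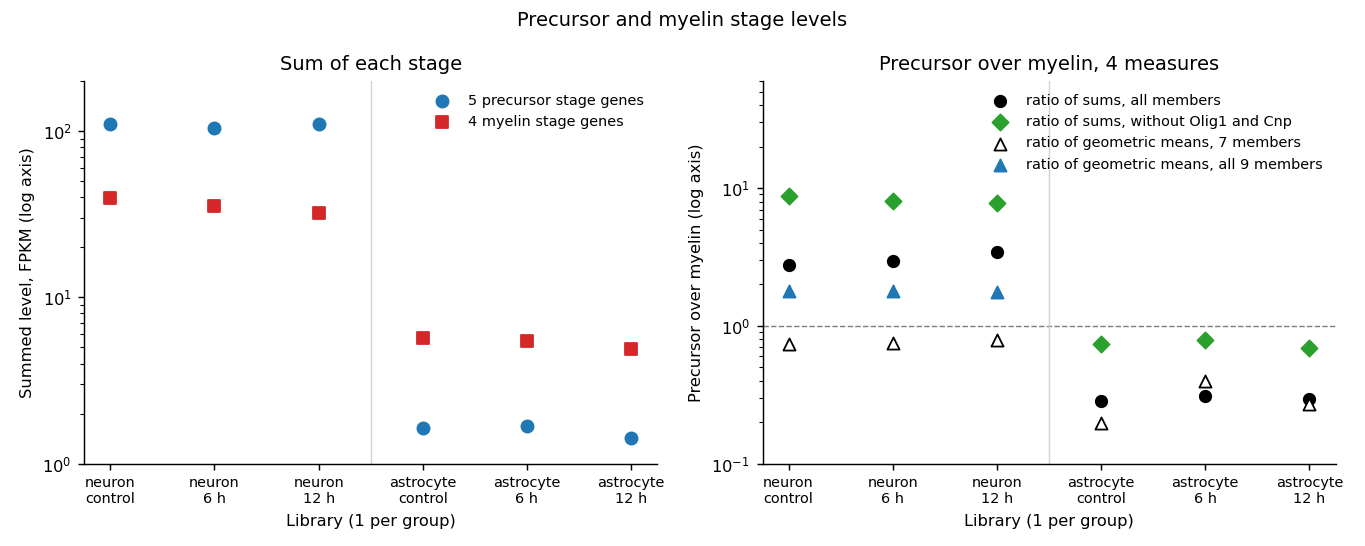
Left, summed FPKM of the 5 precursor and the 4 myelin stage genes in each library on a log axis; right, the precursor over myelin ratio on a log axis as the ratio of sums, the ratio of sums without Olig1 and Cnp, and the ratio of geometric means of the 7 members with a value in every library and, for the neuron-labelled libraries, of all 9. In the neuron-labelled control the ratio lies above the dashed line at 1 for both sums (2.77 and 8.74) and the 9 members (1.79) and below it for the 7 (0.738), and in the astrocyte-labelled libraries all drawn points lie below it.

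Genes whose pattern over the 6 libraries was most like that of Olig1, Pdgfra and Mbp were found by the root mean square difference of log2 profiles, each centred on its own mean. Candidates had a value in all 6 libraries and reached 5 FPKM in any of them. For Pdgfra the nearest of 1668 was Cnp, at 0.11, followed by Tst and Ndn, both at 0.14. Among the other members only Olig1 and Cnp met the rule for candidates. The stage of the gene nearest to Pdgfra can therefore not be read as a result. For Mbp the nearest were Pnmal2, Diras1 and Hist3h2ba, each at 0.26. For Olig1 they were Stmn3 at 0.41, Kcna2 at 0.62 and Bcan at 0.84, of 1667. The 6 points of each profile come from 2 cultures and are not independent.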

How the data were processed

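RNA of primary rat hippocampal cultures was sequenced after ribosomal RNA depletion with a stranded total RNA kit, per the labels' protocols. The deposited file holds log2 FPKM, quantile-normalised by the authors across the 6 libraries. FPKM, log and quantile come from the table's name, all 6 columns had the same quantiles, and base 2 was settled from the values. Per the submitters' processing notes, the build was Rnor 6.0 and the tools included Partek 6.5 and bcl2fastq 2.17.1.14. The annotation and the aligner were not given in the sources used here. Depth is unknown. Unused sample columns numbered 0.

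Columns were matched to samples by their description labels. For 2 repeated symbols the row of higher mean entered, and blanks were no value. Differences were taken on the deposited scale with pandas 2.3.3, with calls as described in the report. The calling step was tested on simulated data. The 9 members and all lists were chosen with earlier results of these data known. Named genes are the members, further lineage genes reaching 1 FPKM in any library, and the 3 of most like pattern for each of 3 members. Gpr17, Enpp6, Myrf, Mobp, Opalin, Insr, Igf1r, Omg, Zfp57, Odf3l1 and the marker genes fall outside it and were named after their values were seen. Of the 79 further lineage symbols, 5 were not found. Some listed genes are not reported here by name. RefSeq of GRCr8, in which all 9 members matched, gave neighbours, overlaps and promoter sequences. Alternatives were log2(FPKM + 1), no floor, a floor of 5 FPKM, centring, and blanks set to the lowest value. Stage alternatives were mean log2 values and sums over fewer members.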

Additional observations from a re-analysis of the deposited data

Results flagged for a closer look

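Sox10 was the member whose difference from the control had opposite signs in the cultures at both times. It was -0.12 at 6 h and -0.10 at 12 h in the neuron-labelled culture, and 1.31 and 1.40 in the astrocyte-labelled culture, on the log2 scale. The difference between the cultures was not tested, and the astrocyte-labelled levels were all below 0.01 FPKM.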

How the results depend on the processing

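No paired analysis was possible because each group has 1 library. For the same reason no replicate could be left out. Only log2(FPKM + 1) and centring can change the difference of a single member. Of 66 such differences, 65 kept their side of 2-fold, and the exception was Cspg4 between the controls, -0.73 with log2(FPKM + 1). With no floor, the count of members past 2-fold in the astrocyte-labelled culture was 2 at 6 h (Olig1 and Sox10), 1 at 12 h (Sox10) and 2 between 12 h and 6 h (Olig1 and Olig2), against 0 for each with the floor. Between the controls it was 2 with a floor of 5 FPKM, against 5, since fewer members were measured. The other counts, 0 in the neuron-labelled culture among them, were the same or within 1.5 times. No member of the astrocyte-labelled culture reached the floor of 5 FPKM, so that alternative gave no count there.

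The precursor over myelin ratio of sums in the neuron-labelled control, 6 h and 12 h libraries was 2.77, 2.95 and 3.42. With mean log2 values of the 7 members left without Olig2 and Mag it was 0.738, 0.758 and 0.792. The remaining measures were chosen after seeing the data, except those without the most abundant member of each stage. Mean log2 values of all 9 members gave 1.79, 1.80 and 1.77, and sums over the 7 gave 2.16, 2.37 and 2.82. Without the most abundant member of each stage the ratio was 8.74, 8.04 and 7.80, and in the astrocyte-labelled libraries, where these are Cspg4 and Cnp, 0.144, 0.196 and 0.130. Without Olig1 and Cnp it was 0.734, 0.784 and 0.686 in the astrocyte-labelled libraries, and without Mog 0.466, 0.485 and 0.501. Depth is unknown, and levels far below 1 FPKM limit what can be said of Olig1, Olig2, Sox10, Mbp and Mag in the astrocyte-labelled culture.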

Other observations

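Omg, an inhibitory myelin glycoprotein gene chosen after its values were seen, was at 0.0333 FPKM at 6 h and 0.0358 FPKM at 12 h in the neuron-labelled culture, against 0.175 FPKM in the control, and was blank in all astrocyte-labelled libraries. The level is too low for the size rule used here.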
